A study of Mus musculus with 33 samples.

Results

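The Adamdec1 fibroblasts with Fgf10 are stromal cells of the adult mouse colon that carry transcripts of both Adamdec1 and Fgf10. They were chosen by measured values, counted as unique molecular identifiers (UMIs), in which each captured transcript counts once. The floor for a cell was 1000 UMIs and 500 genes, and mitochondrial UMIs could not exceed 20%. At least 0.4% of its UMIs had to come from Adamdec1 and at least 2 from Fgf10, with fewer than 2 from Nrg1 and fewer than 2 from the endothelial genes Pecam1 and Cdh5 together. Cells with at least 3 UMIs of Ereg and at least 1 of Cxcl2 were left out. These limits found 828 cells among 17652, of which whole mesenchyme held 249, the first GFP-low replicate (GFP-low 1) 291 and the second (GFP-low 2) 288. They are called Fgf10 cells below, and all limits without the one on Fgf10 are called the Adamdec1 gate, which held 5427 cells.

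Adamdec1 encodes a secreted metalloprotease-like protein and marks fibroblasts of the gut lamina propria, the connective tissue around the crypts. Fgf10 is a secreted growth factor that acts mainly on epithelial cells through the FGFR2b form of the receptor Fgfr2. The stem cells at the crypt base depend on Wnt signals, which R-spondins such as Rspo3 amplify, and on low BMP activity, which secreted antagonists such as Grem1 keep down. Ptch1 is the receptor for Hedgehog ligands, which colon epithelium secretes toward the stroma, and its transcript rises when that pathway is active.

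Mesenchymal cells of mouse colon were profiled untreated, in 3 droplet libraries that belong to a wider series on graded BMP signalling in the crypt niche. Whole mesenchyme (1 library, genotype given as control) held live cells that lacked EpCAM, found on epithelium, and CD45, found on leukocytes. GFP-low (2 libraries, genotype PdgfraH2BeGFP) held unstained cells sorted for a low level of the nuclear green fluorescent reporter of the Pdgfra locus. The adults were of both sexes, and the muscle layer was peeled off before EDTA and collagenase treatment. The labels do not tie a library to particular animals, so p-values rest on these 3 libraries. In the main tests they measure how far a difference between cell groups of the same library varies from library to library. That spread may be partly technical. The edgeR test used below pools that spread in part over all genes, so very small p-values do not rest on 3 libraries alone. Genotype, sort and library cannot be told apart when whole mesenchyme is set against GFP-low. Nor can sex: Xist, which female cells transcribe, stood at 538 CPM (UMIs per 1000000) in the Fgf10 cells of whole mesenchyme and had 0 UMIs in those of both GFP-low libraries, with upper 95% Poisson limits of 1.57 and 1.69 CPM.

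Median depth of the Fgf10 cells was 6413 UMIs in whole mesenchyme, 7841 in GFP-low 1 and 7517.5 in GFP-low 2, against 3697, 6044.5 and 5690 in cells of the Adamdec1 gate with no Fgf10 UMI. A limit of 2 UMIs of a scarce transcript favours deep cells. In barcodes with 10 to 100 UMIs, which hold mainly free RNA, Adamdec1 stood at 9966 CPM in whole mesenchyme and at 1959 and 1550 in the GFP-low libraries. Free RNA of whole mesenchyme was thus itself above the 0.4% limit of the gate. Fgf10 stood at 49.4, 31.1 and 8.10 CPM in the same barcodes, from 25, 95 and 6 UMIs, so that a part of the Fgf10 UMIs of any cell can be free RNA; how large a part was not tested. No 2 Fgf10 cells of different libraries shared a barcode, although 6, 11 and 11 barcodes were shared between pairs of libraries among all cells.

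Marker genes placed the Fgf10 cells among fibroblasts. All 6 general fibroblast markers were detected in every library, led by Dcn, a collagen-binding proteoglycan, at 8000 CPM in whole mesenchyme, 10124 in GFP-low 1 and 7886 in GFP-low 2. Markers of mesothelium were at 0 in all 3 libraries, and those of epithelium summed to at most 2.75 CPM. Smooth muscle and myofibroblast markers summed to 467, 273 and 289 CPM and B or plasma cell markers, mainly Igkc, to 66.1, 257 and 186 CPM. Markers of other fibroblasts were far higher. The 6 markers of Cd81 fibroblasts and trophocytes, led by C3, summed to 2245, 2878 and 1972 CPM, with Cd81 itself at 23.0, 39.6 and 28.9. The 5 of Pi16 fibroblasts summed to 803, 949 and 842 CPM, against 560, 1003 and 882 in gate cells without an Fgf10 UMI. Lamina propria fibroblast markers other than Adamdec1 summed to 899, 765 and 952 CPM, against 996, 896 and 1071 in the gate cells without an Fgf10 UMI. Of the 4 genes given as markers of the Fgf10 cells, Adamdec1 and Fgf10 were set by the gate. In the Fgf10 cells Fgfr2 stood at 215, 180 and 284 CPM and Ptch1 at 190, 171 and 405 CPM.

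Fgf10 cells made up 7.45% of the Adamdec1 gate in whole mesenchyme (249 of 3341; exact 95% binomial interval 6.58 to 8.40%). The share was 29.4% in GFP-low 1 (291 of 991; 26.5 to 32.3%) and 26.3% in GFP-low 2 (288 of 1095; 23.7 to 29.0%). Depth differs between the libraries, so every cell was also thinned to 1000 UMIs drawn at random. An Fgf10 UMI was then left in 6.11% of the gate in whole mesenchyme, 17.2% in GFP-low 1 and 14.0% in GFP-low 2, against 22.1%, 54.0% and 53.0% before thinning. The same share after thinning was 0.731%, 0.660% and 0.719% in cells with Adamdec1 under 0.1% of UMIs, whose unthinned share was 2.84%, 3.57% and 4.38%. In whole mesenchyme 0 of 513 endothelial cells kept one, which allows a share of up to 0.585%, taken as 3 counts of the total. The exact 95% upper limit was 0.717%. Before thinning 5 of 513 had an Fgf10 UMI, at a median of 3281 UMIs. The Fgf10 share of the gate thus lay above that of Adamdec1-low and endothelial cells, and it was higher in both GFP-low libraries than in whole mesenchyme. With 1 library of whole mesenchyme this difference has no test, the intervals cover counting error only, and the part of the sort and of the free Adamdec1 RNA in it was not tested.

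**Figure D1:**
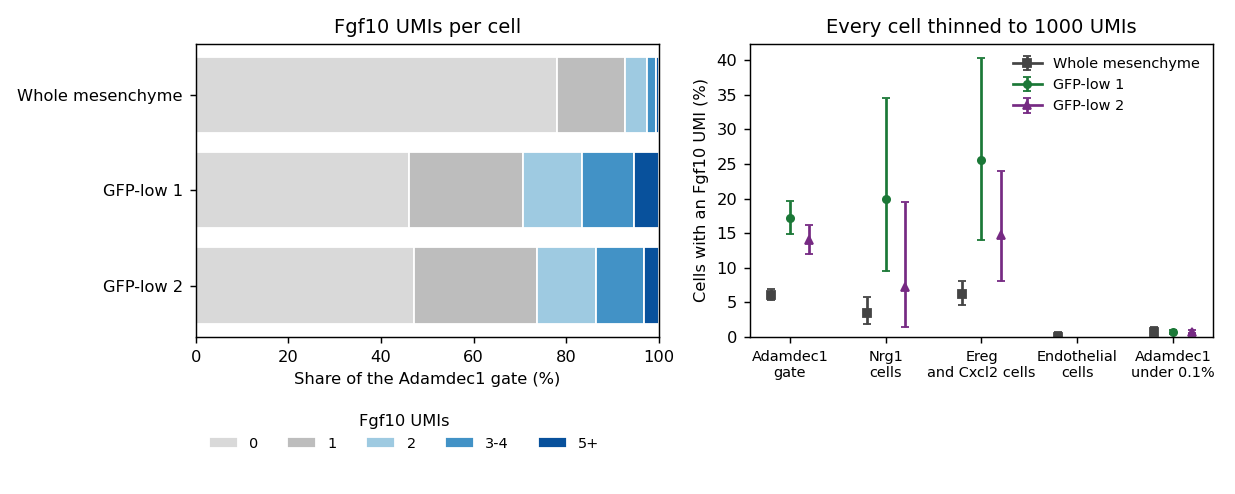
Left, share (%) of the Adamdec1 gate by the number of Fgf10 UMIs in a cell, for the 3 libraries; blue segments are the Fgf10 cells. Right, share (%) of cells with an Fgf10 UMI after thinning every cell to 1000 UMIs, with exact 95% binomial intervals, in groups of at least 20 cells: the gate keeps 6.11%, 17.2% and 14.0%, and Adamdec1-low cells under 1%.

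Most cells with at least 2 Fgf10 UMIs fell in the class described here: 60.1% of 414 in whole mesenchyme, 68.3% of 426 in GFP-low 1 and 65.9% of 437 in GFP-low 2. The next largest places were the Ereg and Cxcl2 cells in whole mesenchyme (17.1%) and cells with Adamdec1 between 0.1% and 0.4% in the GFP-low libraries (18.5% and 14.2%). The limit on Fgf10 is part of the rule, and the gate held 49.2%, 20.5% and 18.2% of all cells, so these shares are a description. Cells with at least 2 Fgf10 UMIs made up 8.79%, 36.2% and 35.2% of the Ereg and Cxcl2 cells, and of the gate 7.45%, 29.4% and 26.3%. The median depth of the Ereg and Cxcl2 cells was higher too, at 6460.5, 8524 and 8352.5 UMIs against 4405, 6954 and 6377. After thinning, 6.19%, 25.5% and 14.8% of them kept an Fgf10 UMI. Within the class Fgf10 itself was low: 161 of 249 cells of whole mesenchyme, 127 of 291 of GFP-low 1 and 139 of 288 of GFP-low 2 had just 2 UMIs, and the highest cells had 9, 11 and 10.

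The first question was what else distinguishes these fibroblasts from cells of the same Adamdec1 gate without an Fgf10 UMI (2603, 456 and 515 cells). Raw UMIs were summed per library and class and compared with edgeR's quasi-likelihood test, with the library as a block. The Fgf10 cells held more transcripts of the BMP antagonist Grem1, the R-spondin Rspo3 and the Wnt inhibitor Frzb, and fewer of the ligands Wnt4 and Wnt5a and of contractile genes. Of 10737 genes tested, 29 were higher (0.27%) and 49 lower (0.456%) at an adjusted p (Benjamini-Hochberg) under 0.05, and 77 of the 78 went the same way in all 3 libraries. Without the library block no gene passed, and 186 had an unadjusted p under 0.05; DESeq2 called 15 higher and 22 lower. Leaving out GFP-low 2 gave 89 higher and 196 lower, and leaving out whole mesenchyme gave 44 and 56.

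Grem1, which binds BMPs outside the cell, stood at 588 CPM in the Fgf10 cells of whole mesenchyme against 133 in cells without Fgf10. In GFP-low 1 it stood at 1362 against 358 CPM, and in GFP-low 2 at 691 against 345. Every Fgf10 sum lay above every sum without Fgf10. The log2 difference was 1.67 ± 0.17 (SE, n = 3 libraries; edgeR adjusted p = 0.00066). After thinning, 24.1%, 37.8% and 28.5% of Fgf10 cells kept a Grem1 UMI, against 7.2%, 14.5% and 16.5% of the cells without Fgf10. The Cd81 fibroblast and trophocyte markers include Grem1 itself, so their sum is not independent of it. In Fgf10 cells of whole mesenchyme they summed to 2245 CPM against 965. The sums were 2878 against 1996 in GFP-low 1 and 1972 against 1556 in GFP-low 2. C3, the largest of these markers, stood at 1604 against 806, 1428 against 1566 and 1197 against 1101 CPM in the same order of libraries. C3 was thus lower in the Fgf10 cells of GFP-low 1. The part of this marker set in the Grem1 and Rspo3 differences was not tested. Grem1 was the only one of 10 tested BMP and activin antagonists to pass. None of the 16 tested BMP receptors and response genes passed, and among 9 BMP and GDF ligands only Bmp3 did, lower. The ligand Bmp4 had 771, 1052 and 967 CPM in Fgf10 cells and 705, 939 and 882 in the others, with log2 0.11 ± 0.09 (adjusted p = 0.77).

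Wnt-related genes moved in both directions. Rspo3, the ligand that amplifies Wnt signals through Lgr receptors, stood at 58.2, 87.3 and 79.7 CPM in Fgf10 cells against 26.9, 44.3 and 45.5, without overlap (log2 0.94 ± 0.11, adjusted p = 0.0018). Frzb, a secreted protein that binds Wnts, stood at 49.1, 46.4 and 38.9 against 24.7, 28.6 and 22.9 CPM (log2 0.80 ± 0.13, adjusted p = 0.010); DESeq2 did not call it. The ligand Wnt4 was lower, at 138, 157 and 172 CPM in Fgf10 cells against 176, 282 and 299 (log2 -0.69 ± 0.11, adjusted p = 0.0094). Its smallest difference was in whole mesenchyme, and the groups did not overlap. After thinning, 12.4%, 13.7% and 15.6% of Fgf10 cells kept a Wnt4 UMI, against 14.1%, 19.1% and 23.1%. Wnt4 no longer passed without GFP-low 1, where its log2 difference was -0.60 (adjusted p = 0.075). Wnt5a, another ligand, stood at 24.9, 14.1 and 18.8 against 80.1, 19.9 and 49.0 CPM (log2 -1.33 ± 0.18, adjusted p = 0.0044). A Wnt5a UMI was kept after thinning by 3.21%, 2.41% and 2.43% of Fgf10 cells, against 7.38%, 0.88% and 4.66%. GFP-low 1 thus went the other way, from 7 and 4 cells. In sums of thinned cells Rspo3 still passed, while Wnt4, Wnt5a and Frzb did not. Of the lists, 2 of 5 tested Wnt ligands were lower, 1 of 2 R-spondins higher, 1 of 4 secreted Wnt inhibitors higher and 0 of 5 Wnt response genes passed.

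**Figure D2:**
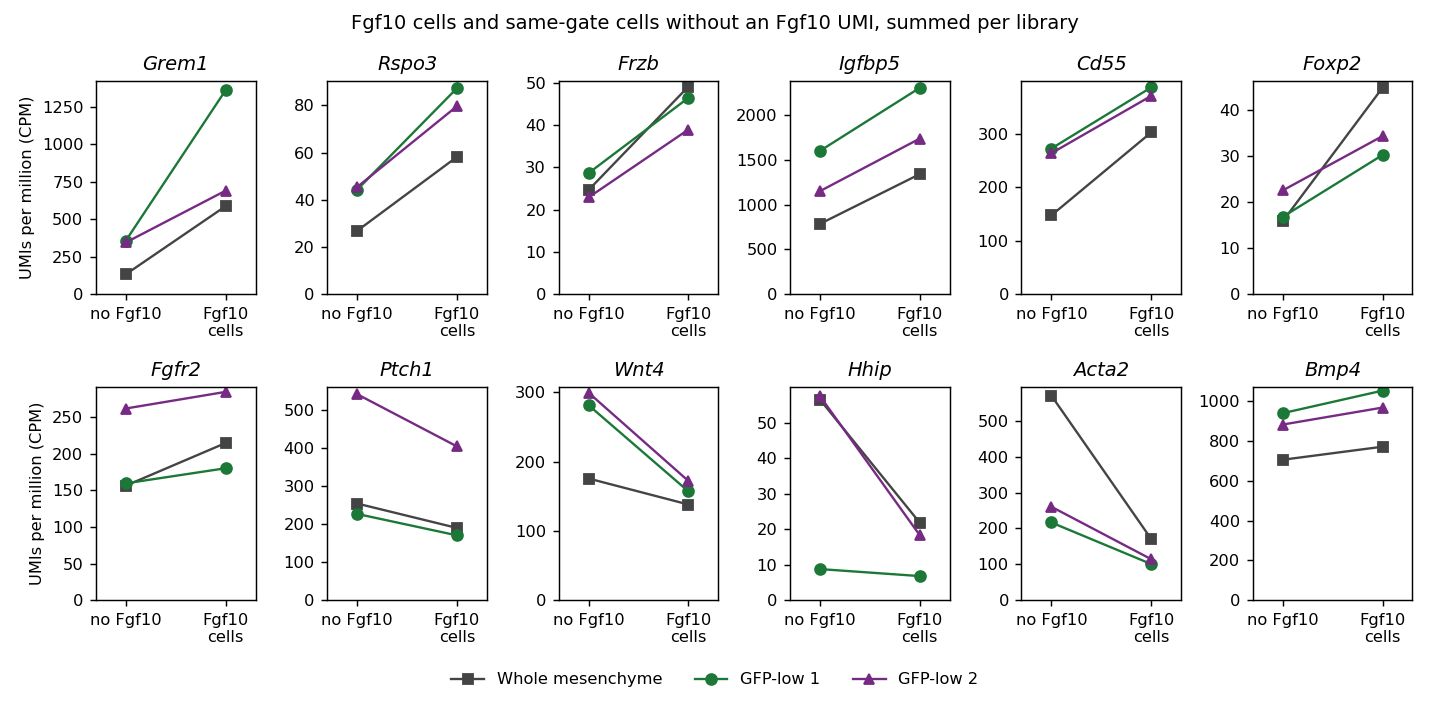
UMIs per 1000000 (CPM, vertical axis from 0) in the summed Fgf10 cells and the summed same-gate cells without an Fgf10 UMI, joined within each of the 3 libraries. Grem1, Rspo3, Frzb, Igfbp5, Cd55 and Foxp2 lie higher in Fgf10 cells in every library, Wnt4 and Acta2 lower, and Bmp4 differs by less than the spread between libraries; Fgfr2 and Ptch1 were not tested.

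Of the Hedgehog and FGF lists, 1 Hedgehog gene and 1 FGF ligand passed, both lower. Over all 10737 tested genes 0.27% were higher and 0.456% lower. With so few genes passing, a short list with few or none is not read as unchanged. Ptch1 and Fgfr2 were proposed with results of these data in view and are described without a test. Ptch1 was lower in Fgf10 cells of each library, at 190 against 255, 171 against 227 and 405 against 542 CPM, and its level in GFP-low 2 was higher than in the other libraries in both classes. Fgfr2 was higher in each, at 215 against 157, 180 against 160 and 284 against 262 CPM. After thinning, 18.5%, 13.7% and 25.0% of Fgf10 cells kept an Fgfr2 UMI, against 12.8%, 15.4% and 21.4%, so GFP-low 1 went the other way. Among 15 tested Hedgehog genes only Hhip passed, a membrane protein that binds Hedgehog ligands and is itself a target of the pathway. It stood at 21.8, 6.82 and 18.3 CPM in Fgf10 cells against 56.5, 8.79 and 57.4 (log2 -1.38 ± 0.19, adjusted p = 0.004), with a small difference in GFP-low 1. Hhip did not pass with the limit at 3 Fgf10 UMIs. Gli1, a transcription factor and target of the same pathway, stood at 38.8, 31.5 and 34.8 against 43.1, 31.7 and 35.9 CPM (log2 -0.10 ± 0.12, adjusted p = 0.86). The median log2 difference of the Hedgehog list was -0.09, with 0.00 over all tested genes.

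Of the FGF ligands other than Fgf10, 4 were tested and only Fgf9 passed, at 3.64, 0.852 and 1.37 CPM in Fgf10 cells against 62.8, 4.20 and 5.64 (log2 -3.50 ± 0.34, adjusted p = 0.00044). Without whole mesenchyme its adjusted p was 0.15. Fgf7, which acts on the same receptor form as Fgf10, stood at 67.9, 74.1 and 68.7 against 43.9, 53.5 and 51.1 CPM, higher in each library without passing (log2 0.49 ± 0.11, adjusted p = 0.067). None of the 3 other tested FGF receptors and none of 10 tested FGF feedback and response genes passed.

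In each of 3 further lists a single gene was higher in Fgf10 cells and none lower: Igfbp5 of 7 tested IGF genes, Cd55 of 10 complement genes and Slit3 of 14 axon guidance genes. Igfbp5, which binds insulin-like growth factors in the matrix, stood at 1341, 2306 and 1738 CPM against 786, 1601 and 1151 (log2 0.60 ± 0.10, adjusted p = 0.012). Cd55, an inhibitor of complement on the cell surface, stood at 302, 386 and 370 against 147, 272 and 263 CPM (log2 0.65 ± 0.11, adjusted p = 0.019). Slit3, a secreted guidance cue, stood at 83.1, 152 and 153 against 53.2, 85.9 and 106 CPM (log2 0.64 ± 0.10, adjusted p = 0.0094). Igfbp5 and Slit3 were higher in every library, yet their levels overlapped between classes across libraries. Both lost their call without GFP-low 1, in thinned cells and without cells holding markers of other types. Slit3 also lost it with DESeq2 and against depth-matched cells, and Cd55 without cells holding markers of other types. Among 17 tested mesenchymal transcription factors Foxp2 and Nr2f2 were higher and Sox6 and Sox4 lower. Foxp2 stood at 44.9, 30.3 and 34.4 CPM against 15.9, 16.8 and 22.5 (log2 1.01 ± 0.18, adjusted p = 0.021), and without whole mesenchyme it no longer passed (adjusted p = 0.098). Foxp2 and Sox4 also lost their calls with DESeq2 and in thinned cells.

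Outside the fixed lists, the 10 largest differences upward were Lgi2, Masp1, Rgs5, Ptger1, Pdlim2, Ces1d, Trabd2b, C1qtnf3, Sod3 and Gda, with log2 differences of 0.62 to 1.03. Sod3, an extracellular superoxide dismutase, stood at 320, 804 and 334 CPM against 166, 519 and 240. Ptger1, a receptor for prostaglandin E2, stood at 50.3, 87.3 and 52.7 CPM against 23.0, 53.9 and 29.9. Rgs5 is also a pericyte marker. The 6 pericyte markers summed to 95.8, 162 and 119 CPM in Fgf10 cells against 120, 109 and 61.0. In each of the 3 sums of Fgf10 cells 5 of them were detected and Higd1b was at 0. Higd1b was also at 0 in the GFP-low 1 cells without Fgf10, so nothing is read from it. The part of pericyte RNA in the Rgs5 difference was not tested. No list of collagens, laminins and glycoproteins, proteoglycans or proteases had a higher member, and Col6a4 and Col4a6 were the only lower ones, 2 of 21 collagens. Col6a4 kept its call in 9 of 18 alternatives and Col4a6 in 9 of 19, and both lost it with DESeq2, in thinned cells and without whole mesenchyme.

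The genes lower in Fgf10 cells included those of contractile cells and of the subepithelial telocyte list. Acta2, smooth muscle actin, stood at 171, 101 and 115 CPM against 570, 217 and 260 (log2 -1.38 ± 0.12, adjusted p = 0.00022), without overlap. An Acta2 UMI was kept after thinning by 6.83%, 4.47% and 8.33% of Fgf10 cells, against 19.4%, 8.11% and 8.16%. The share of cells was thus not lower in GFP-low 2. Myh11, the smooth muscle myosin heavy chain, stood at 45.5, 6.82 and 17.4 against 160, 23.7 and 68.7 CPM (log2 -1.89 ± 0.13, adjusted p = 2.8e-05). Tagln and Myl9, also contractile, and Procr, the endothelial protein C receptor, were lower as well. The 7 smooth muscle and myofibroblast markers together summed to 467 against 1588 CPM in whole mesenchyme, 273 against 458 in GFP-low 1 and 289 against 621 in GFP-low 2.

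Sox6, a transcription factor of the telocyte list, stood at 8.49, 0 and 0.916 CPM in Fgf10 cells against 139, 4.20 and 3.88 (log2 -3.96 ± 0.27, adjusted p = 2.8e-05). Bmp3, an atypical BMP ligand, stood at 7.28, 0 and 0.916 against 85.5, 6.88 and 5.64 CPM (adjusted p = 0.00011). Nearly all of their RNA lay in the cells without Fgf10 of whole mesenchyme. The 8 telocyte markers outside the gate summed to 167 CPM in Fgf10 cells against 637 in whole mesenchyme, 109 against 132 in GFP-low 1 and 168 against 252 in GFP-low 2. Leaving out every cell with a UMI of Foxl1, Sox6, F3 or Bmp7, an alternative chosen after the data were seen, gave 36 genes higher and 48 lower; 27 and 27 of these were among the original calls. Grem1, Rspo3 (log2 0.66) and Wnt4 (-0.75) still passed there and Wnt5a (adjusted p = 0.34) did not.

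Igkc, the immunoglobulin kappa chain of plasma cells, stood at 52.8, 219 and 146 CPM against 95.8, 684 and 203 (log2 -1.06 ± 0.18, adjusted p = 0.013), with its largest gap in GFP-low 1. Its direction turned with the Adamdec1 limit at 0.2% (log2 0.54), and DESeq2 did not call it. Removing all cells with at least 2 UMIs of muscle, pericyte, glial, lymphoid or epithelial markers left 119, 68 and 101 Fgf10 cells and 8186 tested genes, of which 4 were higher and 11 lower. Grem1 (log2 1.47) and Rspo3 (1.04) passed there, while Wnt4 (-0.59, adjusted p = 0.09) and Acta2 (-0.89, adjusted p = 0.38) did not. The sums alone do not tell fewer cells of a kind from less RNA per cell. Shares of thinned cells with a UMI were counted for Acta2, as given above, and for Sox6. A Sox6 UMI was kept by 0.40%, 0% and 0.35% of Fgf10 cells, against 11.7%, 0.44% and 0.58%. How far muscle, telocyte and plasma cell RNA enters these differences was not tested further.

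Graded levels across the number of Fgf10 UMIs show the cells on both sides of the limit at 2. This is a description of the cells that set the rule and has no test. In GFP-low 1, Grem1 stood at 358, 599, 1071, 1078 and 2418 CPM in cells with 0, 1, 2, 3 to 4 and 5 or more Fgf10 UMIs. In GFP-low 2 the order of levels was 345, 371, 360, 840 and 1415 CPM, so cells with 1 or 2 Fgf10 UMIs lay at the level of cells with none. In whole mesenchyme Grem1 stood at 133, 278, 541, 687 and 609 CPM, the last from 19 cells (exact 95% Poisson interval 484 to 757). The highest Grem1 levels were thus in cells with at least 3 Fgf10 UMIs in every library. Just inside and just outside the limit, Grem1 differed in whole mesenchyme and GFP-low 1 and not in GFP-low 2.

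Wnt4 ran the opposite way, most steeply in GFP-low 2. There it stood at 299, 247, 237, 144 and 25.1 CPM over the same 5 bins, the last from 7 Wnt4 UMIs in 35 cells (interval 10.1 to 51.8). In GFP-low 1 it stood at 282, 204, 182, 172 and 83.6 CPM and in whole mesenchyme at 176, 146, 150, 125 and 90.3. Ptch1 was lowest in the top bin of each library: 135 CPM against 255 in cells without Fgf10 in whole mesenchyme, 121 against 227 in GFP-low 1 and 284 against 542 in GFP-low 2. Fgf7 was highest there, at 105, 119 and 97.0 CPM. Adamdec1, which the gate uses, stood at 13675 CPM in the lowest and 9982 in the highest bin of GFP-low 1. Median depth of the bins rose from 3697 to 6481 UMIs in whole mesenchyme, from 6044.5 to 8868 in GFP-low 1 and from 5690 to 8004 in GFP-low 2, so bins differ in depth as well as in Fgf10.

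**Figure D3:**
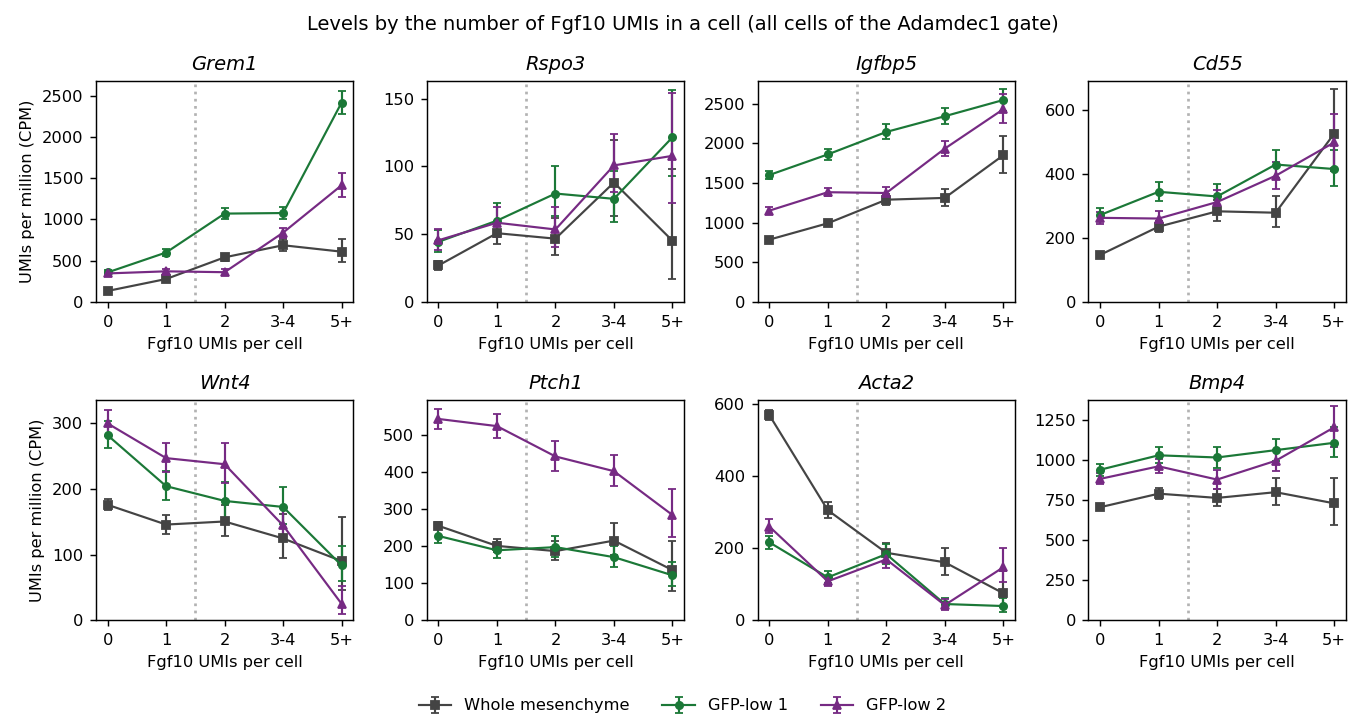
UMIs per 1000000 (CPM) of 8 genes in summed cells of the Adamdec1 gate by their number of Fgf10 UMIs (0, 1, 2, 3 to 4, 5 or more), with exact 95% Poisson intervals, for each library; the dotted line is the limit of the Fgf10 cells. Grem1 reaches 2418 CPM in the top bin of GFP-low 1 and Wnt4 lies at 25.1 CPM in that of GFP-low 2.

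The Fgf10 cells were next set against the Nrg1 cells, which pass the same Adamdec1 limit with at least 2 UMIs of Nrg1, a ligand of the ErbB receptors (402, 45 and 42 cells). The Fgf10 cells held more of the R-spondin Rspo3, the antagonist Grem1, 5 of 10 matrix proteoglycans and hyaluronan synthases and the alarmin Il33, and less of the ligands Wnt4, Wnt5a and Bmp7 and of the BMP target Id1. Of 10408 tested genes 249 were higher (2.39%) and 297 lower (2.85%). Without the library block 24 and 71 passed, and without GFP-low 1 there were 122 and 177. All 3 comparisons with other classes use the same sums of Fgf10 cells, so their results are not independent of each other.

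Rspo3 stood at 58.2, 87.3 and 79.7 CPM in Fgf10 cells against 13.3, 20.4 and 26.3 in Nrg1 cells, without overlap (log2 1.95 ± 0.22, edgeR adjusted p = 0.00015). Rspo1 went the other way, at 2.43, 8.10 and 1.37 against 16.8, 25.5 and 29.2 CPM (log2 -2.63 ± 0.48, adjusted p = 0.0053). Both tested R-spondins thus differed, in opposite directions. Grem1 was higher in Fgf10 cells, against 128, 390 and 251 CPM in Nrg1 cells (log2 1.82 ± 0.16, adjusted p = 3.4e-05). Of 6 tested Wnt ligands, Wnt2 and Wnt2b were higher and Wnt4 and Wnt5a lower. Wnt4 stood at 380, 423 and 595 CPM in Nrg1 cells, above all 3 Fgf10 sums of 138, 157 and 172 (log2 -1.58 ± 0.15, adjusted p = 4.9e-05). Wnt2b stood at 43.7, 31.5 and 46.3 CPM in Fgf10 cells against 10.8, 12.8 and 23.3 (log2 1.58 ± 0.27, adjusted p = 0.0037). Wnt2b lost its call without whole mesenchyme and Wnt2 without GFP-low 1, and both did with DESeq2.

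BMP genes went in both directions between Fgf10 cells and Nrg1 cells. Of 9 BMP and GDF ligands, Bmp2, Bmp3, Bmp5, Bmp7 and Gdf15 were lower and Bmp1, a protease in spite of its name, and Bmp6 higher. Of 17 receptors and response genes 4 were lower, Id1, Id3, Smad6 and Atoh8, none was higher, and 13 did not pass. Id1, an inhibitor of differentiation and a direct BMP target, stood at 38.2, 42.2 and 22.9 CPM against 621, 273 and 190 (log2 -3.31 ± 0.24, adjusted p = 7.9e-06). Bmp2 stood at 126, 75.0 and 118 against 951, 166 and 172 CPM (log2 -1.68 ± 0.35, adjusted p = 0.013), with by far the largest gap in whole mesenchyme. Of 9 tested antagonists Grem1 was higher and Fst, Twsg1 and Nbl1 lower. Bmp2, Gdf15 and Smad6 lost their calls with DESeq2, Bmp5 without GFP-low 1, and Twsg1 and Nbl1 without either whole mesenchyme or GFP-low 1. Id1 and Bmp7 passed in all 7 alternatives. Bmp4 stood at 709, 974 and 604 CPM in Nrg1 cells and did not pass (log2 0.27 ± 0.15, adjusted p = 0.44).

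In matrix and immune genes, 5 of 10 proteoglycans and hyaluronan synthases were higher in Fgf10 cells and 1 was lower. Lum, a collagen-binding proteoglycan, stood at 371, 706 and 535 CPM against 131, 201 and 187 (log2 1.58 ± 0.15, adjusted p = 6.2e-05), and Has1, which makes hyaluronan, at 364, 422 and 406 against 51.2, 89.2 and 201. Il33, a cytokine released by damaged cells, stood at 104, 79.3 and 82.5 against 11.6, 17.9 and 11.7 CPM (log2 2.83 ± 0.24, adjusted p = 3.4e-05). Among chemokines Ccl11, Cxcl5 and Cxcl12 were higher and Cxcl9 and Cxcl14 lower, of 13 tested. Cxcl14 stood at 153, 110 and 111 CPM against 347, 525 and 566 (log2 -1.94 ± 0.20, adjusted p = 9.3e-05).

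Transcription factors and prostaglandin genes also differed. Foxp2 stood at 3.44, 2.55 and 17.5 CPM in Nrg1 cells and was higher in Fgf10 cells (log2 2.86 ± 0.43, adjusted p = 0.0013). Tbx3, a T-box factor, stood between 10.2 and 10.9 CPM against 137, 105 and 64.2 (log2 -3.28 ± 0.24, adjusted p = 7.9e-06). Of 8 prostaglandin genes Ptgs1, Ptgs2 and Ptges were lower, and none was higher; the first 2 encode the cyclooxygenases. Ptgs2 and Ptges lost their calls without GFP-low 1 and with DESeq2. The strongest differences outside the lists were Ahnak2, Ptger1 and Trabd2b upward and Ces1f, Ednrb and Prdm1 downward. Ednrb, an endothelin receptor, stood at 13.9, 1.28 and 0.916 CPM against 396, 28.0 and 5.83. The 8 telocyte markers outside the gate summed to 843, 214 and 204 CPM in Nrg1 cells against 167, 109 and 168 in Fgf10 cells; their part in these differences was not tested.

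Against the Ereg and Cxcl2 cells (808, 47 and 88 cells), which carry the epidermal growth factor ligand epiregulin and a neutrophil chemokine, the Fgf10 cells held less of 6 of 13 tested chemokines, 3 of 11 stromal cytokines and 15 of 17 dissociation response genes, which are 24 of the 400 genes called lower. Of 10212 tested genes 97 were higher (0.95%) and 400 lower (3.92%). Without the library block no gene passed, with 397 at an unadjusted p under 0.05, and DESeq2 called 16 higher and 176 lower. Without whole mesenchyme there were 33 and 192. Cxcl12 alone was higher among the chemokines and Il33 among the cytokines, of which 7 did not pass. The other class was chosen by Ereg and Cxcl2, and the rule leaves such cells out of the Fgf10 cells. How far this choice enters the differences was not tested. Against gate cells without an Fgf10 UMI, 0 of 13 tested chemokines and 0 of 11 stromal cytokines passed in either direction. Ccl2, a monocyte chemokine, stood at 772, 359 and 312 CPM in Fgf10 cells against 2068, 2737 and 1320 (log2 -2.24 ± 0.11, adjusted p = 5.8e-29). Cxcl1 stood at 1720, 641 and 1477 against 4186, 1734 and 4920 CPM (log2 -1.60 ± 0.08, adjusted p = 1e-29). Ptgs2, the inducible cyclooxygenase, stood at 349, 154 and 210 against 932, 631 and 641 CPM (log2 -1.77 ± 0.10, adjusted p = 3.2e-26).

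Of 17 genes of the dissociation response, which rise when tissue is digested, 15 were lower in Fgf10 cells and the heat shock genes Hspa1a and Hspa1b higher, Hspa1a not in GFP-low 1 (749 against 801 CPM). The 17 summed to 41547, 28954 and 34543 CPM in Fgf10 cells and to 53509, 40314 and 50010 in the Ereg and Cxcl2 cells. The list moved with the chemokines and its part in their difference was not tested. Against cells without Fgf10 none of the same 17 genes passed, at 49957, 31345 and 29755 CPM in those cells.

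Some growth factor genes stayed higher in Fgf10 cells in this comparison too. Grem1 stood at 237, 709 and 497 CPM in the Ereg and Cxcl2 cells, below the Fgf10 cells of the same library each time (log2 0.81 ± 0.10, adjusted p = 2.3e-10). Rspo3 stood at 34.7, 46.3 and 47.6 CPM there (log2 0.66 ± 0.16, adjusted p = 0.0031) and no longer passed without whole mesenchyme, with DESeq2 or in thinned cells. Wnt2b was also higher, against 19.5, 14.6 and 25.9 CPM (log2 0.94 ± 0.20, adjusted p = 0.0007), and also lost its call without whole mesenchyme and in thinned cells. Wnt4 did not pass, at 155, 158 and 158 CPM (log2 -0.15 ± 0.11, adjusted p = 0.63). Ptch1 and Fgfr2, which were not tested, stood at 173, 149 and 381 CPM and at 193, 158 and 223 CPM in the Ereg and Cxcl2 cells. Bmp2 (log2 -1.04 ± 0.11, adjusted p = 1.9e-11) and its target Id3 (-0.76 ± 0.07, adjusted p = 4.2e-14) were lower in Fgf10 cells. Fmo2, a flavin monooxygenase, had the largest upward difference outside the lists, at 435, 556 and 695 CPM against 218, 224 and 410 (log2 0.87 ± 0.10, adjusted p = 2.9e-11).

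**Figure D4:**
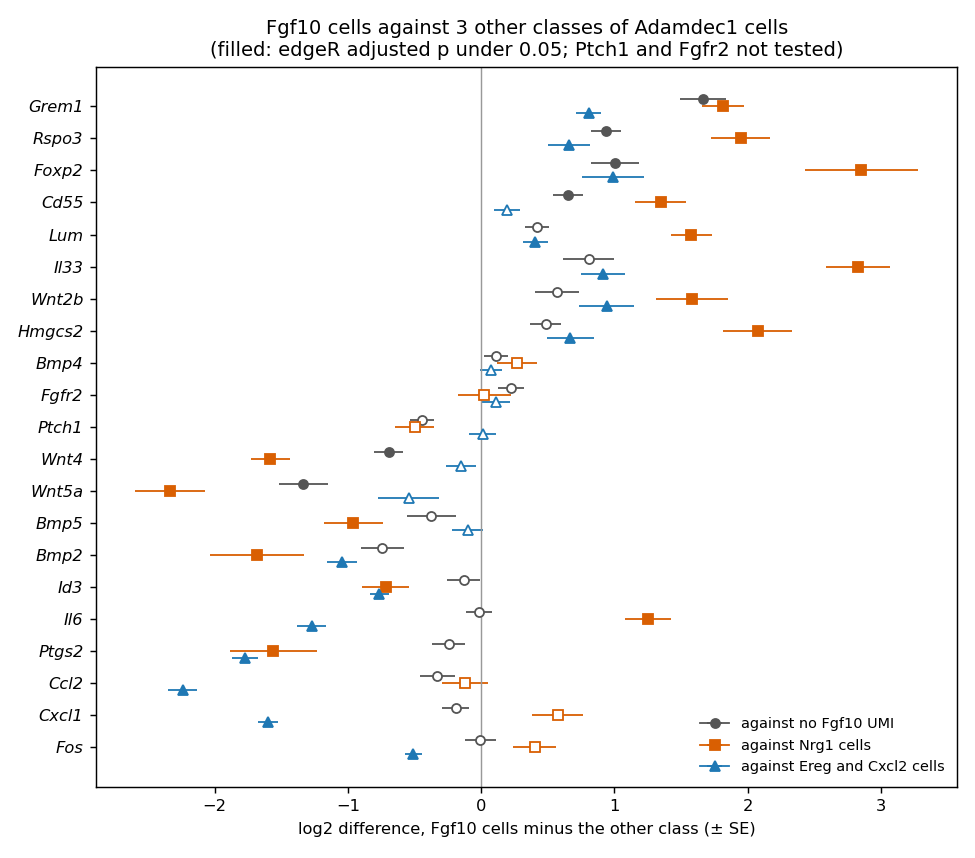
log2 difference of the Fgf10 cells from 3 other classes of Adamdec1 cells, which are the gate cells without an Fgf10 UMI, the Nrg1 cells and the Ereg and Cxcl2 cells (points, bars are SE, n = 3 libraries each); filled points have an edgeR adjusted p under 0.05, and Ptch1 and Fgfr2 were not tested. Grem1 lies at 1.67, 1.82 and 0.81, while Ccl2 and Cxcl1 are filled only against the Ereg and Cxcl2 cells.

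Between libraries, the Fgf10 cells of whole mesenchyme and of GFP-low were compared without a test, since whole mesenchyme is 1 library. A gene was set apart when it lay at least 2-fold outside both GFP-low values with at least 30 UMIs on the higher side. By this rule 60 of 9443 genes were higher in whole mesenchyme (0.635%) and 125 lower (1.32%). Pdgfra, the receptor at whose locus the reporter sits, was among the higher: 324 CPM in whole mesenchyme (exact 95% Poisson interval 297 to 353) against 118 and 154 in GFP-low. Wnt4 (138 against 157 and 172 CPM) and Fgf7 (67.9 against 74.1 and 68.7) lay within 2-fold. Fgf10 did too (392 against 415 and 404 CPM), but every cell was chosen by its Fgf10 UMIs, so nothing is read from this. Of the other 11 genes named in every comparison none was set apart. Nrg1, at 15.8 CPM against 6.82 and 7.79, lay over 2-fold outside both GFP-low values but had 26 UMIs, under the limit of 30. The gate also sets limits on Nrg1 and Adamdec1, so their levels are partly fixed by the choice of cells.

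The largest differences upward were Xist, the transcript that silences an X chromosome in females, at 538 CPM against 0 UMIs in both GFP-low sums, and ribosomal pseudogenes or unnamed gene models such as Gm8797 (1845 against 31.1 and 132 CPM) and Rps12-ps3 (169 against 17.9 and 29.3). Pseudogenes share sequence with their parent genes, so how reads were assigned between them is uncertain. Lower in whole mesenchyme were Vegfd, a growth factor for lymphatic vessels, at 0.606 CPM (interval 0.015 to 3.38) against 14.5 and 16.9, and Pamr1, a secreted protease-like protein, at 5.46 CPM (2.50 to 10.4) against 55.4 and 87.0. Of the 31 lists none had more than 1 gene set apart in either direction. Genes of the dissociation response had a median log2 of 0.63, whole mesenchyme over GFP-low, beside -0.05 over all 9443 genes, with 0 of 17 past 2-fold.

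Among the Fgf10 cells themselves the genes that varied most, after thinning every cell to 1000 UMIs, were ranked by the variance divided by the mean (Fano factor, near 1 for counting noise alone), taking the lowest of the 3 libraries. The first 10 were Gm42418, Malat1, Cxcl10, Mgp, Adamdec1, Saa3, Junb, Jun, Fos and Has1. They include nuclear and ribosomal-type RNAs (Malat1, Gm42418), immediate early transcription factors (Junb, Jun, Fos) and the inflammatory genes Cxcl10, an interferon-induced chemokine, and Saa3, an acute-phase protein. Cxcl10 had Fano factors of 4.27, 3.95 and 4.38, and Mgp, a matrix protein that inhibits calcification, 3.76, 4.15 and 4.30. Grem1 came 20th in that order, with a lowest value of 2.54, so it was unevenly spread among the Fgf10 cells. Wnt4 (1.22), Fgfr2 (1.11), Bmp4 (1.10), Ptch1 (1.08), Fgf7 (1.04) and Rspo3 (1.04) had lowest values near 1. Scarce genes such as Rspo3 and Fgf7 were each detected in 5.62% to 7.29% of thinned Fgf10 cells. Counts this low keep the ratio close to 1, so nothing is read from it. Wnt4, Fgfr2 and Ptch1 were detected in 12.4% to 31.6% of these cells. Their values near 1 are not read as an even spread either. The ranking was not corrected for mean level.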

How the data were processed

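The deposited matrices hold raw UMI counts per gene and barcode; the authors made them with Cell Ranger 3.0.2, per the file headers, on the mm10 build, per the submitters' processing notes. They list 31053 genes and all 6794880 barcodes of the kit, before cell calling, so cells were called here with the limits given in the report. Of 33 samples the 30 bulk RNA and chromatin samples are not used here. The libraries held 41863444, 39190629 and 52313765 UMIs, with 8000 cells loaded each, per the labels.

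Counts were summed per library and class (at least 20 cells) and compared with edgeR 4.0.16, run under R 4.3.3. Genes were filtered by filterByExpr, and the fit used TMM factors (0.947 to 1.07 in the first comparison), the quasi-likelihood test, the library as block, because both sums of a pair come from the same library, and Benjamini-Hochberg adjustment. The common biological coefficient of variation was 0.0871 in the first comparison. As a check of the pairing, the deviations of the 2 sums of a library from their class means correlated at 0.626, 0.711 and 0.594 over 10737 genes. Sums of Fgf10 cells of the GFP-low libraries differed beyond counting noise (chi-square divided by its degrees of freedom, 18.6). The genes of the gate, mitochondrial genes, Ptch1 and Fgfr2 stayed in the fit and out of the tested genes. The SE of a log2 difference is its size divided by the square root of the F statistic of the test, so it shares the pooling over genes. CPM are UMIs per 1000000 of a class sum. Levels are not corrected for gene length.

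Named are 15 fixed genes, up to 3 per list with the largest differences among genes that passed in the same direction in all 3 libraries, and the 10 largest in each direction outside the 31 lists (425 genes) that reach 50 CPM; some are given by name only. Genes outside the rule are named as members of a count of 5 or fewer, after their values were seen; the same holds for the choice of which named genes are given in full. Members and lists were chosen with earlier results of these data known. No doublet caller was run; removing the deepest 6% of cells is an alternative. Scripts ran in Python 3.11.15 with pandas 2.3.3, numpy 2.4.6 and scipy 1.17.1, plots in matplotlib 3.10.9, and DESeq2 1.42.0 served as an alternative. The test was also run on simulated counts, drawn with the coefficient of variation of the real fits. The outcome of that run is not given here.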

Additional observations from a re-analysis of the deposited data

Results flagged for a closer look

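Some genes named in every comparison differed between classes in opposite directions in whole mesenchyme and in both GFP-low libraries; the values are log2 ratios of CPM, and the difference between the library groups was not tested. Bmp5 in Fgf10 cells against cells without Fgf10 was at -1.09 in whole mesenchyme and at 0.0714 and 0.0185 in GFP-low 1 and 2. Fgfr2 against the Nrg1 cells was at 0.75 in whole mesenchyme and at -0.14 and -0.52 in GFP-low. Against the Ereg and Cxcl2 cells, Pdgfra was at -0.0602 and then 0.24 and 0.34. In the same comparison Hhip was at 0.41 and then -1.39 and -0.0532, the GFP-low 1 value from 8 UMIs in 47 Ereg and Cxcl2 cells. Fgf7 there was at 0.22 and then -0.28 and -0.0417.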

How the results depend on the processing

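Counts are given as higher then lower. For Fgf10 cells against cells without Fgf10 (29 and 49), they were 15 and 22 with DESeq2, 111 and 228 without the filter on low counts, 6 and 24 after thinning to 1000 UMIs (6052 genes tested), 56 and 117 against depth-matched cells, 40 and 80 with at least 1 Fgf10 UMI, 49 and 67 with at least 3, 18 and 45 with the Fgf10 limit set on thinned cells, 48 and 87 with Adamdec1 at 0.2%, and 4 and 11 without cells holding markers of other types. Leaving out 1 library gave 35 to 89 higher and 56 to 196 lower. Against the Nrg1 cells (249 and 297), they were 90 and 140 with DESeq2, 422 and 472 without the filter, 95 and 87 thinned, and 122 to 288 and 177 to 428 without 1 library. Against the Ereg and Cxcl2 cells (97 and 400), they were 16 and 176 with DESeq2, 15 and 126 thinned, and 33 to 93 and 192 to 409 without 1 library. Without the library block, which pairs the 2 sums of a library, the counts were 0 and 0, 24 and 71, and 0 and 0. Shares of the gate with an Fgf10 UMI left after thinning were 6.11%, 17.2% and 14.0%. The cause of these shifts was not tested.

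No gene called in the first comparison was called in the opposite direction in any of its 19 alternatives. Over the 37 named genes it called, 535 of 688 values kept their side of the threshold, 152 lost it, 37 of these without the block, and Igkc changed sign with Adamdec1 at 0.2% (0.54). Grem1 kept its call in 18 of 19 alternatives, with log2 differences of at least 0.96. Rspo3 kept it in 17, at 0.50 to 1.32, and Wnt4 in 15, at -1.05 to -0.48. With 2 or more UMIs asked of a scarce transcript, cells without an Fgf10 UMI include cells in which Fgf10 went uncounted.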
